A study of Homo sapiens with 20 samples.

Results

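Bortezomib was given for 3 h to the human colorectal carcinoma cell line HCT-116, and their total RNA was compared with that of the G2 cells from which the treatment started. The 2 groups were taken by their column labels and hold 8 of the 20 libraries of the series, 4 for each group. Both groups had been held in 2 mM thymidine for 16 h, which stalls DNA replication, and then released for 7 h into G2. G2 cells were collected at that point, at 0 h of drug. Bortezomib cells were collected after a further 3 h in 100 nM bortezomib. Cells kept for the same 3 h with vehicle alone were not analysed here, and the drug and 3 h of cell-cycle time cannot be told apart. A further group of 4 libraries, given 20 µM MG132 for 3 h after the same synchronisation, served as a comparison of inhibitors at matched time but different dose. Separate cultures are not stated for the replicates. The p-values therefore measure only how these samples spread, and that spread may be technical.

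Bortezomib is a dipeptide boronate that blocks the chymotrypsin-like site of the proteasome, the protease that degrades ubiquitin-tagged proteins. When this route is blocked, damaged and short-lived proteins accumulate. Cells are known to answer through heat shock factor 1, which activates chaperone genes, through phosphorylation of eIF2 and translation of ATF4, which activates stress and amino acid genes, through NRF2 for oxidative stress, and through NRF1, encoded by NFE2L1, for new proteasome subunits.

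Library totals were 26797395 to 29593966 counts in bortezomib and 28807585 to 35908799 in G2. Values are given as CPM, counts scaled to the TMM-adjusted library size, and the log2 fold change is bortezomib minus G2. Medians of lists, and rises and falls by a stated amount, are log2 fold changes. A gene was called when its edgeR quasi-likelihood adjusted p was under 0.05. Epithelial markers summed to 3648 to 5229 CPM in bortezomib and 3336 to 5884 in G2, with CEACAM5 and CEACAM6 under 1 CPM in all 8 libraries. Of 10 fibroblast markers 9, and of 10 leukocyte markers 7, were under 1 CPM in all 8 libraries (CD3E had no count). Fibroblast markers summed to 5.84 to 10.02 CPM in bortezomib and 6.68 to 10.8 in G2, and leukocyte markers to 3.41 to 7.06 and 3.86 to 4.60. G2 replicates 1 and 2 stood apart in composition. Long interspersed (LINE) repeats took 0.838% and 0.828% of their counts, against 2.498% and 2.08% in G2 replicates 3 and 4 and 1.93% to 4.14% in bortezomib. Replicate 1 also had 68.3% of counts on protein-coding genes, against 77.1% to 82.2% in the other 7. G2 replicate 2 had a dependence of counts on GC content of 0.36 log2 per 10 percentage points, against -0.20 to 0.07 in the other 7. In these bulk samples, fewer cells with a transcript and less transcript per cell cannot be told apart.

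Of 18959 genes tested, 218 (1.15%) were called, 93 higher (0.491%) and 125 lower (0.659%) with bortezomib. The higher genes included members of the heat shock, ATF4 and antioxidant lists, and the lower genes included regulators such as NR1D1, JUNB and SOX4. In 217 of the 218 the libraries of the 2 groups did not overlap. Over all genes tested, 7.66% lay wholly higher and 7.55% wholly lower. Of the 18959, 9238 had a log2 fold change above 0 and 9721 below. At least 2-fold changes were found for 82 of the higher and 96 of the lower genes, and the median over all genes was -0.01. The count moved by over 1.5 times when single libraries were left out. It was 88 without bortezomib replicate 1, 120 without replicate 2, 109 without replicate 4, 91 without G2 replicate 1, 97 without replicate 2 and 137 without replicate 4. Without both G2 replicates 1 and 2, an alternative chosen after seeing the data, 29 genes were higher and 5 lower. Total library size gave 74 higher and 171 lower, and a correction for GC and length gave 256 and 220.

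An undocumented letter in each sample code was treated as a possible batch, and bortezomib replicate 1 and G2 replicates 2, 3 and 4 share one. The letters of bortezomib replicates 2 and 4 occur in no other library, and that of replicate 3 otherwise only in a library of asynchronous cells. Under a letter block, replicates 2 and 4 therefore add nothing to differences between groups. A batch and fewer usable libraries cannot be told apart there as the source of lost calls. With the letter as a block, 29 of the 93 higher genes and 0 of the 125 lower genes were still called, and all 218 kept their direction (median 1.91 and -1.13, against 1.93 and -1.201). That fit called 30 genes higher and 0 lower in all. The shared letter alone has 1 bortezomib library, assumed to vary like the other groups. In that fit the fold changes had medians of 2.03 and -1.27, all in the same direction, and HSPA6 was the only gene called. In the other 22 alternative fits, 22 genes were called each time, among them HSPA6, HSPA1A, HSPA1B, DNAJB1, BAG3, ZFAND2A, CHAC1, ATF3, DDIT3, PPP1R15A, SESN2, DDIT4, STC2, HMOX1, OSGIN1, JUN and GADD45A. NMRAL2P was also among the 22. HSPA6 and NMRAL2P entered the test through groups where they were higher, so their calls in any fit are given as a description.

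Sequences upstream of 4 higher genes are shown because each holds a motif of one of the leading responses. They come from the RefSeq promoters of build GRCh38.p14, run 5′ to 3′ on the gene's strand, and lie within the 250 bases before a start site, outside any annotated exon of GENCODE release 29. Capitals mark a heat shock element (3 adjoining GAA units in alternating orientation, searched on both strands, the site of heat shock factors) in HSPA6. In the other 3 they mark a CARE-like match (TGATGNAA or its reverse complement TTNCATCA, the kind of site bound by ATF4 with C/EBP partners).
HSPA6: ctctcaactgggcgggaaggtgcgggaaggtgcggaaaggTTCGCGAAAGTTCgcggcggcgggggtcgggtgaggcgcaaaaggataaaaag
ATF3: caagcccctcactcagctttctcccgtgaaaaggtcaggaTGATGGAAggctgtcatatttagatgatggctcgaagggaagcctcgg
HERPUD1: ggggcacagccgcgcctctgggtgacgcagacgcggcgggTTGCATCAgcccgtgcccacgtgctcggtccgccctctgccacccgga
JDP2: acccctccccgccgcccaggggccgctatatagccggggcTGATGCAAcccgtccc
The HSPA6 stretch is chr1:161524426-161524518 on the plus strand and its match begins 74 bases before the start site. The ATF3 stretch is chr1:212565176-212565263, with the match 191 bases before a listed start. That of HERPUD1 is chr16:56931926-56932013, with the match at 176 bases, and that of JDP2 is chr14:75427966-75428021, with the match at 16 bases. Promoters were matched by symbol for 10815 of 13755 tested protein-coding genes, 47 of 59 higher and 71 of 96 lower, and a gene counted once if any listed start had a match on either strand. The CARE-like letters were found in 8 of the 47 higher genes (17.0%), 3 of the 71 lower genes (4.23%) and 2.37% of all. Besides the 3 shown, the higher genes were ASNS, CHAC1, DNAJA4, FGF21 and SEMA4A. The call of FGF21 is a description only, as explained below. The heat shock element was found in 2 of the higher genes (4.26%), HSPA6 and SERPINH1, in 1 lower gene and in 0.499% of all. The AP-1 letters TGAGTCA were found in 7 higher genes (14.9%), among them BAG3, DDIT3, HSPA6 and OSGIN1, in 4.23% of the lower and in 4.21% of all. In all, 5 motifs were searched. The CRE letters TGACGTCA were found in 5 higher genes (10.6%), 1.41% of the lower and 3.39% of all. The antioxidant response element was found in 4 higher genes (8.51%), CYP4F11, IFRD1, PPP1R15A and ZFAND2A, in 2.82% of the lower and in 3.14% of all. These matches are descriptions of letters in the sequence, and binding was not measured.

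Chaperone genes formed the first group of higher genes. Of 12 HSP70 and HSP110 genes tested 3 rose (HSPA6, HSPA1A and HSPA1B), with a median of 0.58, and of 18 HSP40 genes and nucleotide exchange factors 3 rose (DNAJA4, DNAJB1 and BAG3), with a median of 0.36. Of 13 genes of the HSP90 machine and heat shock factors 0 were called by edgeR or DESeq2, with 3 higher at an unadjusted p under 0.05. Of 14 small HSP and chaperonin genes 1 rose, SERPINH1. The list medians stayed above 0 under total library size and mitochondrial scaling, which itself moved the median of all genes to -0.22.

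HSPA6 (ENSG00000173110.8, chromosome 1, 161524540 to 161526910, GENCODE release 29 on hg38) encodes a strictly stress-inducible HSP70. It measured 11.03, 3.72, 9.32 and 4.74 CPM in bortezomib replicates 1 to 4 and 0.0367, 0.182, 0.123 and 0.159 in G2. All 4 bortezomib libraries stood far above the G2 ones, where the gene had 18 counts in all. The log2 fold change was 5.74, SE 0.445, adjusted p = 3.95e-07. With 1, 7, 4 and 6 counts in G2, HSPA6 entered the test through groups where it was higher, so its call is given as a description. HSPA1A, a major inducible HSP70, measured 124, 168, 178 and 145 CPM against 7.68, 10.6, 23.3 and 8.47. The groups were well apart, and G2 replicate 3 was the highest of its group. Its log2 fold change was 3.62, SE 0.406, adjusted p = 4.32e-05. The neighbouring copy HSPA1B measured 2925, 2098, 2158 and 1825 CPM against 309.7, 448, 319.9 and 344, a log2 fold change of 2.66, SE 0.29, adjusted p = 3.04e-05. HSPA1A and HSPA1B are nearly identical, and HSPA1B shares exons with ENSG00000285565, so the split of reads among them is uncertain.

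DNAJB1, an HSP40 partner of HSP70, measured 965, 809, 884 and 811 CPM in bortezomib and 324, 305, 238 and 247 in G2. Its groups were narrow and separate, with a log2 fold change of 1.64, SE 0.235, adjusted p = 0.000848. BAG3, a nucleotide exchange factor that links HSP70 to selective autophagy, measured 302, 329, 236 and 302 CPM against 96.2, 92.2, 80.8 and 82.6 (log2 fold change 1.73, SE 0.185, adjusted p = 3.04e-05). DNAJA4, another HSP40, rose by 2.05 and SERPINH1, the collagen chaperone HSP47, by 1.27 (adjusted p = 0.000117 and 0.0059). ZFAND2A, a proteasome-associated stress protein known as AIRAP, measured 113, 110.2, 81.2 and 62.9 CPM against 18.2, 16.8, 11.3 and 13.02 and rose by 2.63 (adjusted p = 3.04e-05). It was the single called member of 20 ubiquitin genes and stress adaptors. The polyubiquitin gene UBB measured 818 ± 88.7 CPM (mean ± SD, n = 4 in each group, here and below) in bortezomib and 936 ± 443 in G2 without passing the test (log2 fold change -0.19, SE 0.301, adjusted p = 0.766).

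HSPH1, an HSP110, measured 1132, 906, 822 and 887 CPM against 229.7, 83.1, 325 and 323. The groups did not overlap, but G2 replicate 2 was low, and the fold change did not pass the test (log2 fold change 1.96, SE 0.526, adjusted p = 0.0742). Without the 4 libraries with a skewed GC dependence, which include G2 replicate 2, it was 1.65 (adjusted p = 0.000606). HSPH1 was called in 0 of the 8 fits that each left out 1 library, at 1.68 without G2 replicate 2. Without G2 replicates 1 and 2 it was 1.53 (adjusted p = 0.713). HSP90AA1 showed the same low G2 library, at 1607, 469, 1793 and 1694 CPM over the replicates, against 3387, 2467, 3166 and 3384 in bortezomib (log2 fold change 1.16, SE 0.551, adjusted p = 0.34). The constitutive HSPA8 measured 6109 ± 912 and 4543 ± 829.8 CPM (log2 fold change 0.43, SE 0.249, adjusted p = 0.443).

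**Figure D1:**
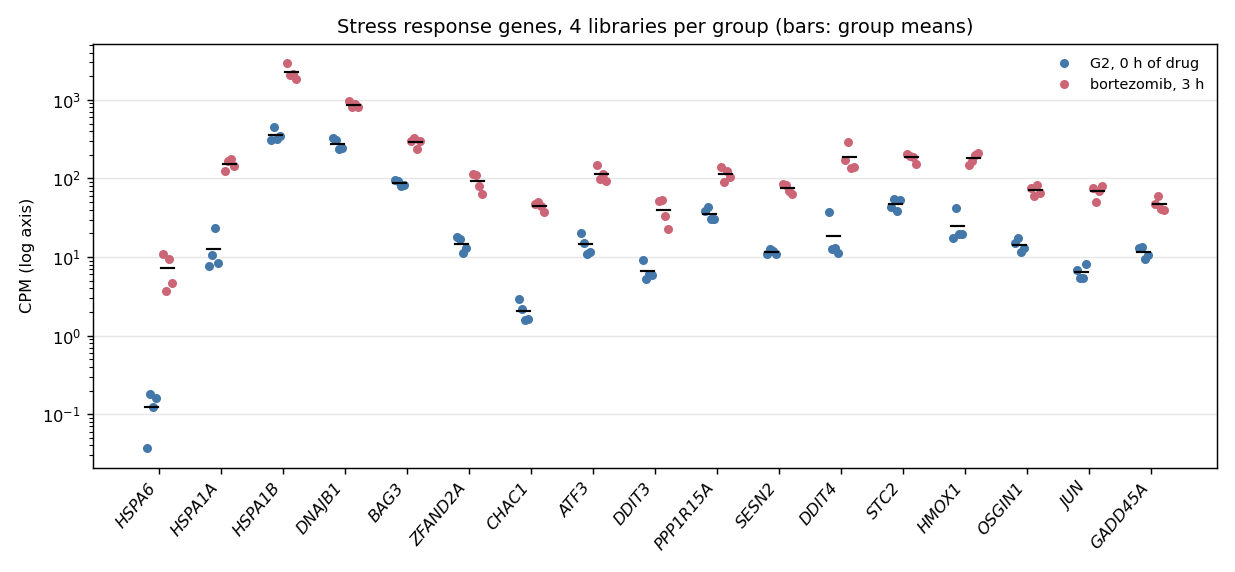
Expression of 17 stress response genes in CPM on a log axis, with 1 point per library, 4 in G2 and 4 in bortezomib, and bars at the group means. The bortezomib points lie above all G2 points for each gene, and HSPA6 starts from the lowest G2 values (0.0367 to 0.182 CPM).

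Genes of the eIF2 and ATF4 pathway formed the second group. Of 15 eIF2 kinases and ATF4 partner factors 4 rose, ATF3, DDIT3, PPP1R15A and JDP2, and the median was 0.66. JDP2, a repressor related to ATF3, was called in 0 of the 8 fits that each left out 1 library (adjusted p up to 0.164, without G2 replicate 1). Of 15 stress outputs of ATF4 8 rose, CHAC1, SESN2, DDIT4, STC2, GDF15, FGF21, TNFRSF10B and ADM2, against 0.491% of all genes tested. FGF21 is counted here as a description only, for the reason given below. All 15 lay above 0, against 9238 of the 18959 genes tested, and their median was 0.90. Both medians were above 0 under each scaling.

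ATF3, a stress-induced transcription factor, measured 149, 98.01, 115 and 91.9 CPM in bortezomib and 20.5, 14.9, 11.01 and 11.5 in G2, a log2 fold change of 2.97, SE 0.348, adjusted p = 7.09e-05. DDIT3, which encodes the transcription factor CHOP, measured 51.7, 52.9, 33.6 and 22.8 CPM against 9.08, 5.22, 6.04 and 5.93. It was higher in all 4 libraries, with bortezomib replicate 4 the lowest of its group, and the log2 fold change was 2.62, SE 0.372, adjusted p = 0.000793. DDIT3 shares exons with ENSG00000285133 and overlaps MARS1 on the other strand. PPP1R15A, the GADD34 subunit that brings a phosphatase to eIF2, measured 141, 90.7, 124 and 104 CPM against 38.4, 43.2, 30.9 and 30.2 (log2 fold change 1.69, SE 0.232, adjusted p = 0.000515). ATF4 itself, which is controlled mainly in translation, measured 404, 395, 387 and 316 CPM against 259, 245, 223 and 223. Its groups did not overlap, but the fold change did not pass the test (log2 fold change 0.66, SE 0.216, adjusted p = 0.144).

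CHAC1 (ENSG00000128965.13, chromosome 15, 40952962 to 40956519), an enzyme that degrades glutathione, measured 47.2, 50.2, 45.2 and 37.4 CPM against 2.903, 2.18, 1.595 and 1.61, the largest fold change after HSPA6 among called protein-coding genes with an average log2 CPM of at least 3 (log2 fold change 4.44, SE 0.339, adjusted p = 3.95e-07). SESN2 and DDIT4 encode inhibitors of mTORC1. SESN2 measured 85.7, 81.4, 68.6 and 63.7 CPM against 10.9, 12.8, 11.8 and 10.9, tight in both groups (log2 fold change 2.69, SE 0.25, adjusted p = 6.19e-06). DDIT4 measured 173, 292, 134 and 141 CPM against 37.7, 12.6, 12.98 and 11.3, with bortezomib replicate 2 and G2 replicate 1 highest in their groups (log2 fold change 3.31, SE 0.516, adjusted p = 0.00207). The secreted factors STC2 and GDF15 measured 186 ± 23.2 against 47.4 ± 7.77 CPM and 106 ± 7.34 against 28.01 ± 15.7 CPM (log2 fold changes 1.97 and 1.93, adjusted p = 0.000117 and 0.00705). FGF21, a stress hormone, had 13, 5, 6 and 2 counts in bortezomib and 0 in all 4 G2 libraries. Against a floor of 3 counts over the G2 group it was at least 10.4-fold higher (adjusted p = 0.00627). FGF21 passed the filter on low counts only with the other groups in the fit, as MG132 libraries had 31 to 44 counts, and it did not enter the fit of only the 2 groups. Its call is therefore given as a description. ADM2, a peptide hormone gene, was called in 5 of the 8 fits without 1 library (adjusted p up to 0.0671, without G2 replicate 1, and also lost without bortezomib replicate 2 and G2 replicate 2).

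Of the genes for amino acid synthesis and transport, 2 rose. ASNS, which makes asparagine, was the single called gene of 10 for amino acid synthesis and measured 68.4, 50.7, 46.9 and 44.9 CPM against 28.3, 31.6, 28.7 and 30.5 (log2 fold change 0.82, SE 0.193, adjusted p = 0.0387). It was called in 0 of the 8 fits that each left out 1 library (adjusted p up to 0.196, without bortezomib replicate 1). SLC1A4, a neutral amino acid carrier, was the single called gene of 10 transporters, whose median was 0.65. It measured 9.07, 10.4, 6.84 and 8.44 CPM against 3.16, 4.08, 3.805 and 4.66 (log2 fold change 1.14, SE 0.259, adjusted p = 0.0329) and was called in 1 of the 8. The cystine carrier SLC7A11 measured 224, 149, 183 and 221 CPM against 12.02, 7.87, 52.99 and 39.6. G2 replicates 1 and 2 were lower than replicates 3 and 4, and the test was not passed (log2 fold change 2.79, SE 0.713, adjusted p = 0.0605). Of 18 aminoacyl-tRNA synthetases 0 were called by edgeR or DESeq2, with 2 higher at an unadjusted p under 0.05. Among 21 ER chaperone and degradation genes HERPUD1, a scaffold of ER-associated degradation, rose and measured 157, 124, 128 and 123 CPM against 62.6, 47.7, 39.5 and 34.1 (log2 fold change 1.53, SE 0.247, adjusted p = 0.0029). The ER chaperone HSPA5 measured 639 ± 53.9 and 395 ± 56.6 CPM and did not pass (log2 fold change 0.70, SE 0.176, adjusted p = 0.058).

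Of 24 NRF2 targets 3 rose, with a median of 0.24. HMOX1, which breaks down heme, measured 149, 168, 197 and 213 CPM against 17.5, 41.97, 19.5 and 19.8, with G2 replicate 2 highest in its group (log2 fold change 2.88, SE 0.353, adjusted p = 0.000117). OSGIN1, an oxidative stress growth inhibitor, measured 76.7, 59.4, 83.2 and 64.4 CPM against 15.2, 17.6, 11.5 and 13.2 (log2 fold change 2.30, SE 0.247, adjusted p = 3.04e-05). SRXN1, which repairs peroxiredoxins, measured 121 ± 15.4 against 65.9 ± 13.1 CPM (log2 fold change 0.88, SE 0.2, adjusted p = 0.0355), and was called in 2 of the 8 fits without 1 library (adjusted p up to 0.126, without G2 replicate 1). It shares exons with ENSG00000270299. NQO1, a quinone reductase and another NRF2 target, chosen after its values were seen, measured 373 ± 42.95 and 386 ± 131 CPM (log2 fold change -0.05, SE 0.236, adjusted p = 0.933).

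Of 24 p53 targets 2 rose, with a median of 0.48. GADD45A, a growth arrest gene, measured 47.1, 59.2, 40.8 and 40.1 CPM against 13.2, 13.4, 9.42 and 10.5 (log2 fold change 2.01, SE 0.214, adjusted p = 3.04e-05). CDKN1A, the cell cycle inhibitor p21, measured 283, 395, 222 and 210.2 CPM against 156, 123, 96.8 and 108 (log2 fold change 1.2, SE 0.277, adjusted p = 0.0366) and was called in 2 of the 8 fits without 1 library (adjusted p up to 0.124, without bortezomib replicate 2). The death receptor genes TNFRSF10B and TNFRSF10D rose by 0.86 and 0.80 (adjusted p = 0.0242 and 0.0314). Each was called in 2 of those 8 fits, with adjusted p up to 0.115 and 0.144 without bortezomib replicate 1. MDM2, the p53 ubiquitin ligase, measured 398 ± 49.7 and 187 ± 59.7 CPM (log2 fold change 1.09, SE 0.428, adjusted p = 0.237).

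Proteasome genes were not called in either direction. Of 14 genes of the 20S core, 19 of the 19S regulator, 16 for assembly and activators and 11 regulators, 0 passed edgeR or DESeq2. At an unadjusted p under 0.05 there were 0, 0, 2 lower and 2 higher. PSMB5, whose product bortezomib binds, measured 202, 160.4, 228 and 180.1 CPM against 343, 302, 193 and 192. The groups overlapped, and G2 replicates 1 and 2 were higher than replicates 3 and 4 (log2 fold change -0.42, SE 0.25, adjusted p = 0.456). PSMD12, of the 19S regulator, measured 326, 267, 331 and 295 CPM against 183, 127, 212 and 213. Its groups did not overlap, but the difference did not pass (log2 fold change 0.73, SE 0.36, adjusted p = 0.362). The median was -0.20 for the 20S genes and 0.15 for the 19S genes. These signs were not stable. With the code letter as a block the 20S median was 0.17, and under mitochondrial scaling the 19S median was -0.06, which is above the -0.22 of all genes.

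**Figure D2:**
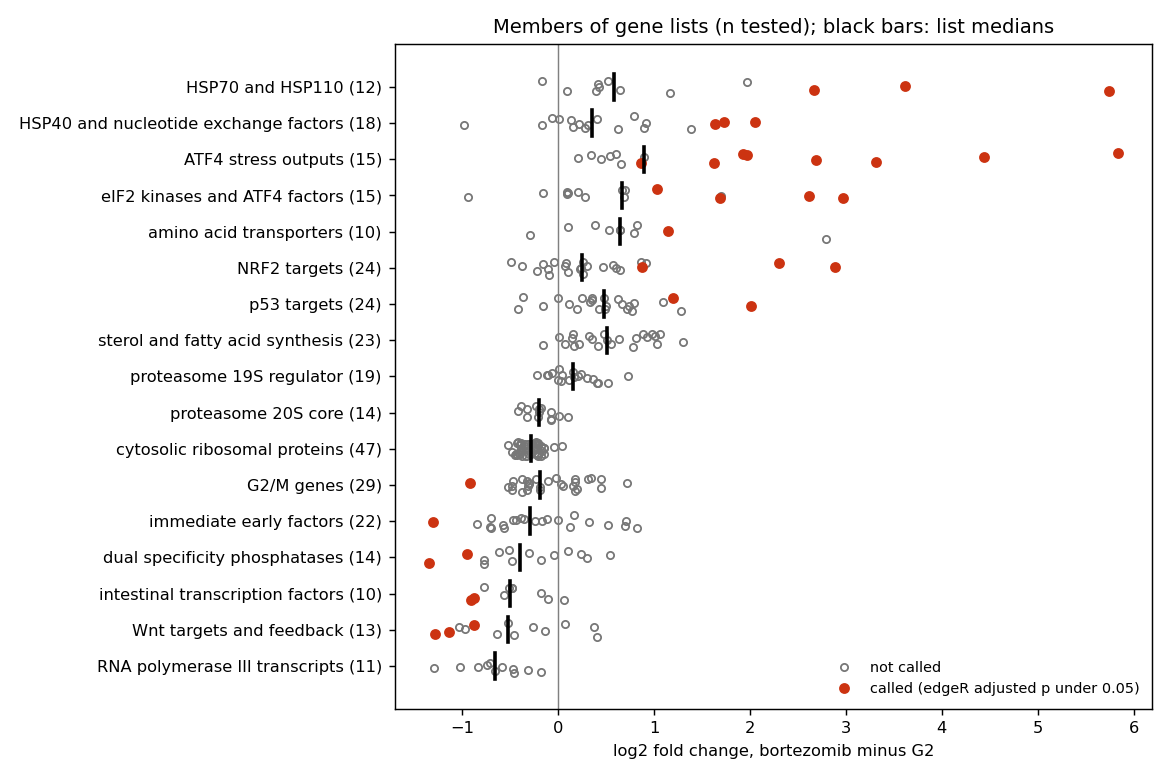
The log2 fold change (bortezomib minus G2) of each tested member of 17 gene lists, with filled points for called genes, open points for the others and a black bar at each list's median. The called genes lie on the right in the chaperone, ATF4, transporter, NRF2 and p53 lists and on the left in the G2/M, immediate early, phosphatase, intestinal and Wnt lists.

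Of 8 AP-1 factors tested 1 rose, JUN, and 1 fell, JUNB. JUN, the stress-induced member (ENSG00000177606.7, chromosome 1, 58780788 to 58784327), measured 75.6, 50.05, 69.9 and 79.3 CPM against 6.91, 5.38, 5.43 and 8.23, all higher, with a log2 fold change of 3.40, SE 0.396, adjusted p = 6.82e-05. JUNB (ENSG00000171223.6, chromosome 19, 12791496 to 12793315) measured 13.6, 15.6, 16.9 and 11.03 CPM against 53.98, 40.02, 33.7 and 35.4, all lower, with a log2 fold change of -1.51, SE 0.293, adjusted p = 0.0109. JUNB was called in 5 of the 8 fits without 1 library (adjusted p up to 0.0584, without bortezomib replicate 4, and also lost without bortezomib replicate 1 and G2 replicate 1). FOS measured 12.7 ± 1.43 and 9.59 ± 2.31 CPM, and EGR1 6.31 ± 1.94 and 11.4 ± 5.35 (adjusted p = 0.593 and 0.465). Of 22 immediate early genes 0 rose and SERTAD3, a transcriptional coregulator, fell by 1.31 (adjusted p = 0.0457; called in 0 of the 8).

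Called protein-coding genes at lower levels were short and had few exons. Their median span was 7.36 kb, 31 of 96 (32.3%) had at most 2 exons in any annotated transcript, and their median GC content was 54.8%. For called higher protein-coding genes these values were 14.98 kb, 15.3% and 52.6%, and for all 13755 tested they were 32.9 kb, 5.08% and 49.1%. The dependence on GC content differed between libraries, as given above. With the correction for GC and length, 105 of the 125 lower genes were called again and all 125 kept their direction, with a median of -0.98.

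NR1D1 (ENSG00000126368.6, chromosome 17, 40092787 to 40100725), which encodes the circadian repressor REV-ERBα, measured 3.35, 2.39, 4.11 and 4.22 CPM in bortezomib and 12.97, 9.88, 14.5 and 11.2 in G2, the lowest fold change among called protein-coding genes at that expression minimum (log2 fold change -1.79, SE 0.338, adjusted p = 0.00922). It overlaps THRA on the other strand, and the strand setting of the counting is not given in the sources used here. It was the single called member of 12 circadian genes, and PER2 measured 12.3 ± 3.48 and 12.4 ± 3.19 CPM (log2 fold change -0.01, SE 0.321, adjusted p = 0.995). TRIB1, a pseudokinase that guides ubiquitin ligases, measured 89.9, 122, 95.1 and 118 CPM against 259, 232, 250.03 and 257, both narrow (log2 fold change -1.23, SE 0.199, adjusted p = 0.0029). MARS2, the mitochondrial methionyl-tRNA synthetase, fell and measured 13.2 ± 0.7903 CPM against 30.01 ± 3.52 (log2 fold change -1.19, SE 0.159, adjusted p = 0.000354). TRIB1, MARS2, SOX4 and WNT16 were the lower genes named here that were also called without both G2 replicates 1 and 2.

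Of 13 Wnt targets and feedback genes 3 fell, SOX4, SOX9 and WNT16, and the median was -0.52. SOX4, a transcription factor, measured 16.1, 19.7, 24.6 and 28.6 CPM against 48.4, 54.1, 62.1 and 52.1 (log2 fold change -1.28, SE 0.212, adjusted p = 0.0037). SOX9, a factor of the intestinal crypt, measured 26.8, 45.1, 26.2 and 43.4 CPM against 61.95, 55.02, 69.8 and 73.1 (log2 fold change -0.88, SE 0.202, adjusted p = 0.0367). AXIN2, the feedback inhibitor most used as a Wnt readout, measured 9.81, 7.36, 11.6 and 12.4 CPM against 12.7, 25.8, 24.5 and 21.1. Its groups did not overlap, but the difference did not pass (log2 fold change -1.03, SE 0.333, adjusted p = 0.139). DKK1, a secreted Wnt antagonist, measured 112, 99.9, 131 and 120.2 CPM against 423, 318, 191 and 325, with G2 replicate 3 nearest to bortezomib (log2 fold change -1.44, SE 0.292, adjusted p = 0.016). DKK1 was called in 4 of the 8 fits without 1 library (adjusted p up to 0.0777, without G2 replicate 1, and also lost without bortezomib replicates 1, 2 and 4). The Wnt receptor gene FZD2 and DACT1, a Dishevelled-binding protein, were chosen after their values were seen. They fell by 1.35 and 1.51 (adjusted p = 0.0346 and 0.0386). They were called in 0 and 1 of the 8. SOX9 was called in 2, with an adjusted p up to 0.181 without bortezomib replicate 1. Of 10 intestinal transcription factors SOX9 and GATA6 fell. GATA6 measured 2.13, 2.01, 2.37 and 2.37 CPM against 4.59, 4.26, 4.203 and 3.68 (log2 fold change -0.91, SE 0.217, adjusted p = 0.0421; called in 0 of the 8). CDX2 measured 8.098 ± 1.24 and 11.3 ± 1.99 CPM (log2 fold change -0.48, SE 0.241, adjusted p = 0.369).

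Feedback genes of receptor tyrosine kinase signalling were counted as a list, with no test of the list as a whole. Of 14 dual specificity phosphatases and Sprouty-type regulators, DUSP7 and SPRY2 fell, and the median was -0.40. SPRY2 measured 1.66, 1.57, 1.74 and 1.85 CPM against 4.37, 3.92, 4.82 and 4.26 (log2 fold change -1.35, SE 0.231, adjusted p = 0.00518). DUSP7, an ERK phosphatase, measured 9.91, 10.4, 12.7 and 14.2 CPM against 20.7, 26.5, 19.1 and 24.7 (log2 fold change -0.95, SE 0.209, adjusted p = 0.0281) and was called in 2 of the 8 fits without 1 library (adjusted p up to 0.141, without bortezomib replicate 1). SPRY1 and the ephrin gene EFNA1 were chosen after their values were seen. SPRY1 measured 0.4398, 0.511, 0.851 and 0.481 CPM against 2.35, 1.53, 1.53 and 1.56 (log2 fold change -1.60, SE 0.291, adjusted p = 0.00695), and EFNA1 3.25, 3.34, 4.59 and 2.59 CPM against 16.3, 10.1, 9.39 and 9.16 (log2 fold change -1.70, SE 0.323, adjusted p = 0.00925). Without G2 replicate 1, which was highest for both, EFNA1 had an adjusted p of 0.0501.

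Cell cycle genes were also compared, and in them too the drug and 3 h of cell-cycle time cannot be told apart. Of 29 G2/M genes CENPA, the centromeric histone, fell, and the median was -0.19. CENPA measured 23.6, 23.4, 27.6 and 20.7 CPM against 56.5, 46.5, 38.5 and 38.1 (log2 fold change -0.92, SE 0.199, adjusted p = 0.0271), shares exons with SLC35F6, and was called in 3 of the 8 fits without 1 library (adjusted p up to 0.117, without G2 replicate 1). CCNB1, the mitotic cyclin, measured 503, 447, 534 and 359 CPM against 754, 648, 487 and 504 (log2 fold change -0.38, SE 0.231, adjusted p = 0.466), and PLK1 measured 134 ± 11.6 and 158 ± 26.7 (log2 fold change -0.24, SE 0.194, adjusted p = 0.568). Of 25 G1/S genes 0 were called by edgeR or DESeq2, with 2 higher and 1 lower at an unadjusted p under 0.05. CDKN1B, the cell cycle inhibitor p27, was chosen after its values were seen and measured 16.6, 16.6, 18.1 and 17.4 CPM against 35.3, 30.1, 31.2 and 32.9 (log2 fold change -0.91, SE 0.176, adjusted p = 0.0103; lost without bortezomib replicate 1, adjusted p = 0.0541).

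HOX genes, which set positional identity in development, were noticed as a group after the values were seen. Of 29 tested, 6 fell (among them HOXA5, HOXA10, HOXA13, HOXB4 and HOXB7), 28 lay below 0, and the median was -0.83. Over all 18959 genes tested, 0.659% were called lower and 9721 lay below 0. HOXB7 measured 23.3, 28.5, 32.5 and 30.6 CPM against 66.4, 53.4, 36.4 and 44.9 (log2 fold change -0.81, SE 0.196, adjusted p = 0.0472). HOXA5 and HOXA10 were called in 3 of the 8 fits without 1 library, HOXB4 and HOXB7 in 1 and HOXA13 in 0. The median was -0.55 with the GC and length correction and -1.05 under mitochondrial scaling.

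**Figure D3:**
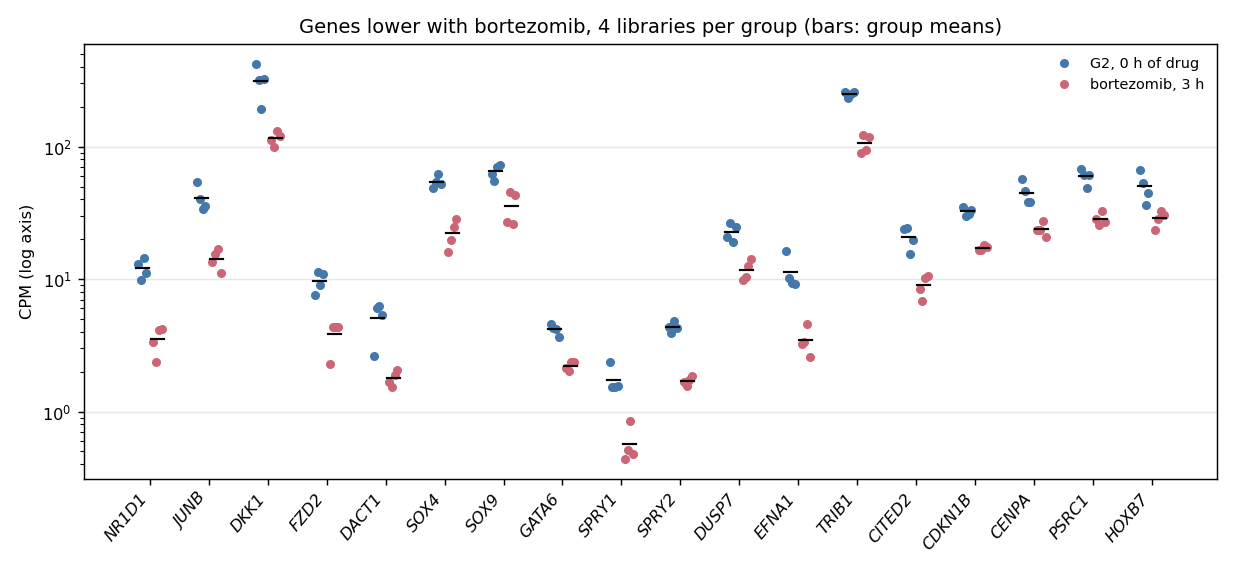
Expression of 18 genes called lower, in CPM on a log axis, with 1 point per library, 4 in G2 and 4 in bortezomib, and bars at the group means. For each gene the bortezomib points lie below all G2 points.

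Among non-coding genes NEAT1 (ENSG00000245532.9, chromosome 11, 65422774 to 65445540), the RNA scaffold of nuclear paraspeckles, measured 302, 246, 125 and 162 CPM in bortezomib and 49.2, 24.3, 73.02 and 62.6 in G2 (log2 fold change 2.00, SE 0.369, adjusted p = 0.00801). It was the single called gene of 20 regulatory RNAs and snoRNA hosts. MALAT1, its neighbour, measured 6177, 6109, 4690.03 and 3989.7 CPM against 1902, 751, 3492 and 3869, with G2 replicates 1 and 2 low (log2 fold change 1.07, SE 0.522, adjusted p = 0.358). MIR34AHG, the host of the p53-responsive miR-34a, rose by 1.32 (adjusted p = 0.0244) and was called in 3 of the 8 fits without 1 library. The pseudogene NMRAL2P measured 2.44, 1.88, 1.74 and 2.44 CPM against 0, 0.104, 0.123 and 0.0794 (log2 fold change 4.67, SE 0.503, adjusted p = 3.04e-05). With G2 values near 0, NMRAL2P entered the test through groups where it was higher, and its call is also given as a description. The antisense gene HSD17B1-AS1 fell by 1.22 and LINC00857 by 0.91 (adjusted p = 0.00994 and 0.0189). They were called in 6 and 4 of the 8.

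Some other lists had medians away from 0 with no gene called by edgeR or DESeq2. Over all 18959 genes tested, 9238 lay above 0 and 9721 below. The median was -0.29 for 47 ribosomal protein genes, of which 46 lay below 0, and -0.66 for 11 RNA polymerase III transcripts, all below 0. With the code letter as a block these medians were 0.04 and -0.07. The median was 0.47 for 13 mitochondrial mRNAs and 0.51 for 23 sterol and fatty acid genes, of which 22 lay above 0. At an unadjusted p under 0.05 the counts were 0, 1 lower, 0 and 4 higher. Some libraries stood apart from the rest of their group in these lists. The mitochondrial mRNAs summed to 9353 CPM in G2 replicate 1, against 10760 to 11198 in replicates 2 to 4 and 10988 to 13930 in bortezomib. The ribosomal protein genes summed to 62660 and 48355 CPM in G2 replicates 1 and 2, against 32427 and 33267 in replicates 3 and 4 and 31396 to 39548 in bortezomib. The polymerase III transcripts summed to 130600 and 58564 CPM in G2 replicates 1 and 2, against 35482 and 38627 in replicates 3 and 4 and 35757 to 48132 in bortezomib. The sterol and fatty acid genes summed to 8119 CPM in bortezomib replicate 2, against 2862 to 3099 in the other 3 bortezomib libraries and 2442 to 3051 in G2, and 1 of the 23 had no overlap.

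Repeat subfamilies, counted over all their genomic copies, lay mostly higher with bortezomib, and 1 passed the test. Of 1076 tested, 1 was called higher (0.0929%) and 0 lower by edgeR. At an unadjusted p under 0.05, 492 were higher and 3 lower, and DESeq2 called 39 higher and 2 lower. The median was 0.85, against -0.01 for genes, and 1054 lay above 0. The repeat median was 0.47 with the code letter as a block and -0.03 when genes and repeats were scaled and fitted separately. Scaling repeats by themselves sets their median near 0 in advance, so the -0.03 cannot show whether the shift remained. Libraries did not overlap for 137 higher subfamilies (12.7%) and 1 lower (0.0929%). HERV9NC-int, the internal part of an endogenous retrovirus, measured 106, 70.9, 69.7 and 65.03 CPM against 19.8, 35.01, 28.01 and 34.4, with bortezomib replicate 1 highest (log2 fold change 1.41, SE 0.232, adjusted p = 0.00663). Its adjusted p was 0.211 without G2 replicates 1 and 2. LTR12C, the promoter repeat of this retrovirus group, measured 324, 221, 236 and 243 CPM against 178, 131, 138 and 169.9 (log2 fold change 0.73, SE 0.223, adjusted p = 0.108). LTR7Y, chosen after its values were seen, was the subfamily lower in all 4 libraries, at 53.8, 61.6, 69.5 and 72.7 CPM against 98.5, 117, 98.9 and 100.4 (log2 fold change -0.69, SE 0.193, adjusted p = 0.108). L1HS, the youngest LINE-1, measured 46.3, 34.8, 34.3 and 77.7 CPM against 14.9, 8.16, 40.3 and 29.4 (log2 fold change 1.06, SE 0.605, adjusted p = 0.134). G2 replicates 1 and 2 were the lowest for L1HS, as for all LINE counts. Without them the median over all repeats was 0.44 and 0 were called. Whether the composition of these libraries accounts for the rest was not tested.

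**Figure D4:**
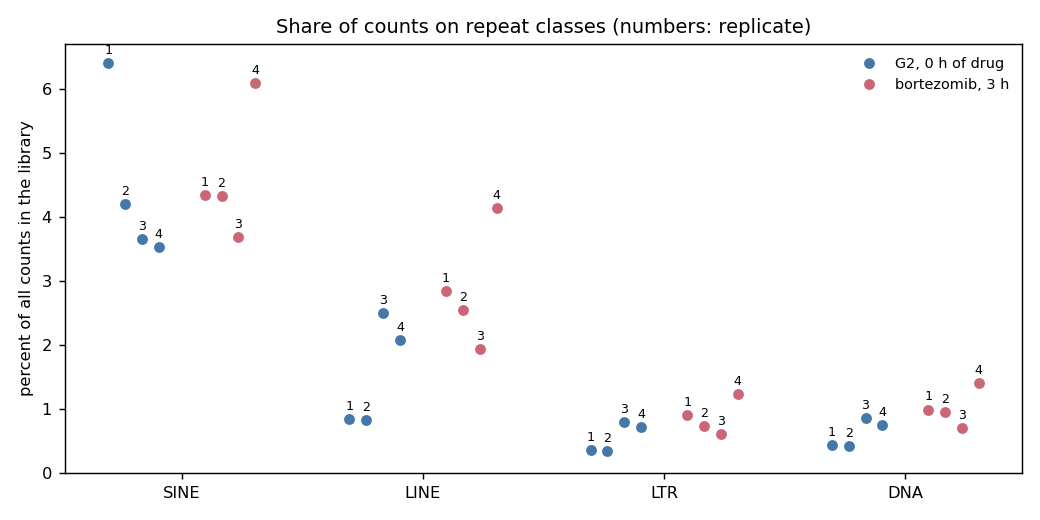
Percent of all counts in each library on SINE, LINE, LTR and DNA repeats, with 1 point per library labelled by replicate, for G2 and bortezomib. G2 replicates 1 and 2 have LINE shares of 0.838% and 0.828%, below 2.08% and 2.498% in the other G2 libraries and 1.93% to 4.14% in bortezomib.

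Bortezomib at 100 nM was set beside MG132 at 20 µM, a peptide aldehyde that inhibits the proteasome, after the same 3 h. The doses differ, so the values describe these exposures and not the potency of the compounds. MG132 replicates 2 and 4 are among the 4 libraries with a skewed GC dependence. Of 18959 genes 7 were called (0.0369%), all 7 lower in bortezomib. Higher in bortezomib were 0 by edgeR or DESeq2, with 419 higher and 349 lower at an unadjusted p under 0.05. All 4 bortezomib libraries lay above all 4 MG132 libraries for 1.42% of genes and below them for 1.74%. HSPA6 measured 11.03, 3.72, 9.32 and 4.74 CPM with bortezomib and 91.3, 46.96, 88 and 76.05 with MG132 (log2 difference, bortezomib minus MG132, -3.39, SE 0.347, adjusted p = 9.66e-05). Of the 7 genes, it alone was called in all 8 fits that left out 1 library of either group. ZFAND2A measured 113, 110.2, 81.2 and 62.9 CPM against 299, 412, 281 and 352 (log2 difference, bortezomib minus MG132, -1.87, SE 0.278, adjusted p = 0.01) and SERPINH1 513, 429.9, 409 and 363 against 1206, 709, 1069.7 and 1386 (log2 difference, bortezomib minus MG132, -1.35, SE 0.223, adjusted p = 0.0217). The count over all genes was 1 without bortezomib replicate 3 or 4, 3 without replicate 1 or 2 and 4 without MG132 replicate 4. These 3 genes, HSPA6, ZFAND2A and SERPINH1, rose against G2 and were lower than with MG132.

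CRYAB, the small heat shock protein αB-crystallin, had 7, 4, 2 and 4 counts with bortezomib, 104, 60, 147 and 61 with MG132 and 0 in G2 (log2 difference, bortezomib minus MG132, -4.31, SE 0.569, adjusted p = 0.0132). Its bortezomib and G2 counts were near 0, and a gene that reaches the test through its high group had to differ, so its call is given as a description only. DUSP1, a MAP kinase phosphatase, measured 20.3, 13.9, 18.6 and 17.4 CPM with bortezomib, 54.3, 88.5, 56.8 and 66.2 with MG132 and 14.8, 13.7, 9.54 and 10.3 in G2 (log2 difference, bortezomib minus MG132, -1.92, SE 0.276, adjusted p = 0.00947). NR4A1, an immediate early nuclear receptor, measured 16.6, 16.9, 17.6 and 13.9 CPM with bortezomib, 38.8, 26.1, 38.7 and 52.8 with MG132 and 16.1, 18.6, 17.9 and 17.9 in G2 (log2 difference, bortezomib minus MG132, -1.27, SE 0.226, adjusted p = 0.047). DUSP1 and NR4A1 were not called against G2 (adjusted p = 0.374 and 0.805). Leaving out 1 library kept the call in 6 of 8 fits for ZFAND2A, 5 for DUSP1, 4 for CRYAB, and 1 for SERPINH1 and NR4A1. The highest adjusted p were 0.0998 without bortezomib replicate 3 for ZFAND2A, and 0.0796, 0.113, 0.187 and 0.381 without bortezomib replicate 4 for DUSP1, CRYAB, SERPINH1 and NR4A1. With the code letter as a block 0 were called. CHAC1 and ATF3 did not pass the test of difference, with CHAC1 at 47.2, 50.2, 45.2 and 37.4 CPM with bortezomib and 83.4, 73.4, 84.1 and 114 with MG132 (log2 difference, bortezomib minus MG132, -0.98, SE 0.292, adjusted p = 0.872) and ATF3 at 149, 98.01, 115 and 91.9 with bortezomib and 242, 215, 284 and 359 with MG132 (log2 difference, bortezomib minus MG132, -1.28, SE 0.327, adjusted p = 0.588). Of 1076 repeats 0 differed by edgeR or DESeq2, with 118 higher and 3 lower in bortezomib at an unadjusted p under 0.05, and 2.6% lay wholly higher.

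**Figure D5:**
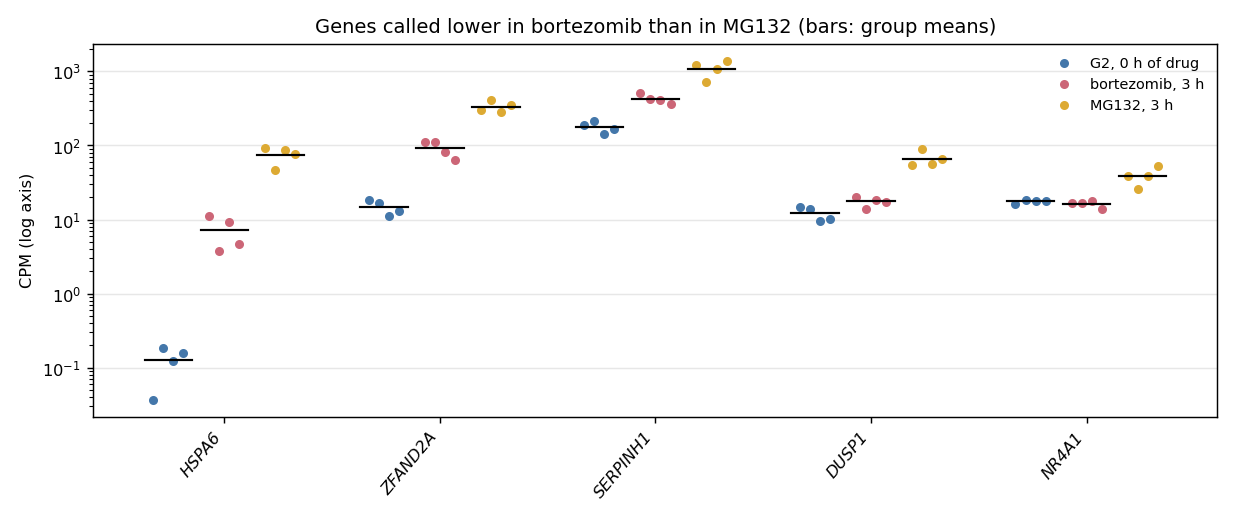
Expression of 5 of the 7 genes called lower in bortezomib than in MG132, in CPM on a log axis, with 1 point per library, 4 each in G2, bortezomib and MG132, and bars at the group means. Bortezomib points lie below all MG132 points for each gene, and for NR4A1 they overlap the G2 points.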

How the data were processed

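Total RNA from HCT-116 cells was depleted of ribosomal RNA and sequenced, per the labels' protocols. The authors deposited raw counts, whole numbers for 39918 genes and 1174 repeat subfamilies. The submitters' processing notes name FastQC, cutadapt 1.18, STAR and hg38, without roles. The counting tool, its strand setting and its treatment of multiply aligned reads are not given in the sources here, so near-identical, overlapping and antisense genes are uncertain. Columns were matched to samples by name, and groups came from the labels.

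All 20 libraries were fitted in R 4.3.3 with edgeR 4.0.16 (filterByExpr, TMM, robust quasi-likelihood, 1 mean per group, 15 residual degrees of freedom, biological coefficient of variation 33.3%). Benjamini-Hochberg adjusted p-values are over 18959 genes and, separately, 1076 repeats. CPM has no prior count, and the SE is the absolute log2 fold change over the root of the F statistic. The script was tested on simulated data. Alternatives were RLE, total library size and mitochondrial scaling (13 mRNAs), a stricter minimum (4 samples reaching 1 CPM) or none, DESeq2 1.42.0, limma-voom, only the 2 groups, separate fits of genes and repeats, blocks for replicate number and code letter, the libraries of 1 letter, a 2-fold minimum, a GC and length offset (98.6% of genes), omission of 4 GC-skewed libraries and of each library. Omission of G2 replicates 1 and 2 was added after seeing the data.

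Members and gene lists were chosen with earlier results of these data known. Named genes were the 15 highest and 15 lowest called protein-coding genes and the 6 highest and 6 lowest of other types whose libraries did not overlap and whose average log2 CPM reached 3, up to 6 members per list by smallest p, called repeats and a fixed set. Outside this rule, and chosen after their values were seen, were NQO1, TNFRSF10B, TNFRSF10D, ADM2, SPRY1, EFNA1, PER2, FZD2, DACT1, CDKN1B, MARS2, the HOX genes, MIR34AHG, NMRAL2P and LTR7Y. Replicates within a group were not duplicates: the chi-square per degree of freedom between libraries was at least 11.1. Some called or listed genes are not reported here.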

Additional observations from a re-analysis of the deposited data

Results flagged for a closer look

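Of 298 groups of 4 libraries examined, 24 had 1 library so far from the other 3 that its gap to the nearest divided by the group's range exceeded Dixon's critical value. Chance flags about 1 in 20 groups, and no explanation was weighed. In bortezomib, replicate 1 stood apart for HERPUD1 at 157.1 CPM, FZD2 at 2.3, HERV9NC-int at 106.5 and HSD17B1-AS1 at 4.601. Replicate 2 stood apart for TRIB3 at 82.06 CPM, VEGFA at 108.0 and MARS2 at 14.35. Replicate 4 stood apart for the repeats AluSg at 7555 CPM and AluYm1 at 53.52. In G2, replicate 1 stood apart for DDIT4 at 37.7 CPM, SPRY1 at 2.352, EFNA1 at 16.28, PSMA3 at 216.5, POMP at 149.1, TPM3P9 at 4.887 and AluYm1 at 3342. Its share of counts on protein-coding genes was 68.33% and on mitochondrial mRNAs 0.7931%. G2 replicate 2 stood apart for HSP90AA1 at 468.9 CPM, HMOX1 at 41.97, SRXN1 at 85.42, MFSD5 at 30.12, NFE2L2 at 44.26 and LTR7Y at 117.4.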

How the results depend on the processing

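None of the 84 named genes and repeats called against G2 changed direction in an alternative, and 44 were called in all 8 fits without 1 library. Against 218 genes, mitochondrial scaling gave 99, DESeq2 621, the fit of only the 2 groups 386 (122 higher, 264 lower), the code letter block 30, letter O alone 1, the GC and length offset 476, omission of 4 GC-skewed libraries 425 and the added omission of G2 replicates 1 and 2 gave 34. The fits without 1 library gave 88 to 181. Against 1 repeat, total library size, mitochondrial scaling, only the 2 groups, separate fits, letter O and omission of G2 replicates 1 and 2 gave 0, DESeq2 41 and omission of the GC-skewed libraries 2, and leaving out 1 library always gave 1. Against 7 genes for MG132, total library size gave 4, mitochondrial scaling 3, DESeq2 19, only the 2 groups 3, the letter block and letter O 0, and leaving out 1 library 1 to 10. Against 41 called list members, mitochondrial scaling gave 26, DESeq2 69, the letter block 19, letter O 1, the GC and length offset 74, omission of the GC-skewed libraries 64 and omission of G2 replicates 1 and 2 23, and leaving out 1 library 28 to 34. The causes were not tested, except that the last alternatives hold fewer libraries. The GC offset gives no value for repeats. Replicate numbers did not pair the samples (correlations of same-numbered deviations -0.07, 0.06, -0.36 and 0.27). With the replicate number as a block, 120 genes and 1 repeat were called against G2, 3 genes against MG132 and 30 list members.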
